A study of Mus musculus with 8 samples.

Results

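The genes described here are granzymes A, B and C (Gzma, Gzmb, Gzmc), perforin (Prf1) and serglycin (Srgn), 5 of the 27179 genes in the table. They were selected on these same libraries because Gzmb and Gzmc were higher in the lamina propria, and the others were joined to them as parts of the same granule. The cells were lymphoid tissue inducer (LTi) cells of C57BL/6 mice, a kind of innate lymphocyte that starts lymphoid tissue formation. They came from Peyer's patches (PP) and small intestinal lamina propria (LP), sorted as lineage-negative, CD127+, CCR6+ cells that lacked NKp46, NK1.1 and KLRG1. Genotypes were Tcf7+/+, called wild-type, and Tcf7fl/fl with Cre, labelled Tcf7-KO, and each of the 4 groups held 2 libraries. No treatment and no age are given in the labels, which also do not say whether the wild-type mice carried Cre. The Cre used is not specific to LTi cells. Whether a group's libraries are from different animals is not stated, and p-values here therefore refer to the spread among these libraries alone. In bulk RNA of sorted cells, fewer cells that express a gene and less RNA of it per cell cannot be told apart.

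Cytotoxic lymphocytes store granzymes, a family of serine proteases, in granules on the proteoglycan serglycin. On release, perforin opens pores in the target cell membrane and the granzymes enter and cleave proteins there. These genes are best known from natural killer (NK) cells and cytotoxic T cells, and the gut holds many such cells among its intraepithelial lymphocytes.

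Values are RPKM (reads per kilobase of gene and per M reads), which are per length and so can be set between genes. The deposited table holds no counts. The smallest values put the depth at 37.8 to 43.6 M reads per library, and all 8 columns carry the same lane label. The gene targeted in the mice, Tcf7, stood at 242.5 and 85.4 RPKM in PP of wild-type mice and at 355.5 and 337 in PP labelled Tcf7-KO. In LP it stood at 229 and 246 RPKM in wild-type and at 237 and 215 in the libraries labelled Tcf7-KO. Its RNA, counted over the whole gene, was thus not lower in PP labelled Tcf7-KO, and the LP groups overlapped. The limma difference was 1.26 ± 0.48 (log2, SE, adjusted p = 0.365) in PP and -0.07 ± 0.48 (adjusted p = 1) in LP. A value for the whole gene does not show the deleted part alone, and the libraries are called by their labels throughout. The surface markers that define the sort were present, with Il7r (CD127) at 206 to 454 RPKM over all libraries and Ccr6 at 89.3 to 597.

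Gzmb and Gzmc are neighbours on chromosome 14, 17.2 kb apart in GRCm38, at one end of a granzyme cluster that spans 145 kb from Gzme to Gzmb. Their promoter sequences are shown with that of Gzmd, another gene of the cluster, because Gzmb and Gzmc had matching patterns over the libraries and Gzmd, whose promoter is close to that of Gzmc, was present at a far lower level. Each sequence is the 250 bases before the RefSeq start site (GRCm38.p6, minus strand, read 5′ to 3′), at chr14:56262335-56262584 for Gzmb, chr14:56234658-56234907 for Gzmc and chr14:56132594-56132843 for Gzmd. Capitals mark matches, on either strand, to the RUNX motif TGTGGT, which reads ACCACA when it lies on the other strand, and to the AP-1 motif TGANTCA.
Gzmb: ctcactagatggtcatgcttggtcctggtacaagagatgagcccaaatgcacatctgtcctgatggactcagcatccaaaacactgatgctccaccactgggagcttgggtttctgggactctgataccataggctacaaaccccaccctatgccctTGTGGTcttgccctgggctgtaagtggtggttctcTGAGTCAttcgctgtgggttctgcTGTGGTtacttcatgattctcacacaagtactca
Gzmc: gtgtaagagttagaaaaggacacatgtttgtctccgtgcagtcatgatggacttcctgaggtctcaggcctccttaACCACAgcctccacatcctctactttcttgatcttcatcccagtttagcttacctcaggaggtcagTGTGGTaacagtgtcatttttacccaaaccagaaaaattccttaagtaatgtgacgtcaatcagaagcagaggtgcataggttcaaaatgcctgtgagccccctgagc
Gzmd: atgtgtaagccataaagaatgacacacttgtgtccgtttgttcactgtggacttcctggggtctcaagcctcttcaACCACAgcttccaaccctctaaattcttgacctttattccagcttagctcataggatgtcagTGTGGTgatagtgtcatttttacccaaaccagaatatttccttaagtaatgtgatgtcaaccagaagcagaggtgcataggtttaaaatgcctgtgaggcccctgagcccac

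Each of these windows held 2 RUNX matches, and that of Gzmb also held an AP-1 match, TGAGTCA, 58 to 52 bases before its start. The windows of Gzmc and Gzmd were identical at 206 of 250 aligned bases (82.4%), whereas those of Gzmb and Gzmc could be aligned over only 13 bases. Of 32851 mouse promoter windows of the same length, 14% held the RUNX motif and 6.75% the AP-1 motif. The TCF/LEF motifs CTTTGAT and CTTTGAA, present in 7.48% of all windows, and the T-box motif GGTGTGA, present in 3.33%, had no match in the windows of the 5 genes. A match describes letters in a window and does not show that a factor binds there. The start site of Gzmc used here lies inside the interval annotated for the gene. The bases just after the start site of Gzmb were not found in its GENCODE M21 transcripts, unlike those of Gzmc and Gzmd. Distances given from the Gzmb start are therefore less certain.

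Granzyme B, the protease that cleaves after aspartate and starts apoptosis (Entrez Gene 14939, chr14:56258836-56262334), was listed at 0.199 and 0.333 RPKM in wild-type PP and at 0.201 and 0.105 in PP labelled Tcf7-KO. In LP it was at 14.9 and 30.2 RPKM in wild-type and at 127 and 36.9 in the libraries labelled Tcf7-KO. All 4 LP libraries were above all 4 PP libraries, and the highest was the first LP library labelled Tcf7-KO. The LP mean was 84.8 times the PP mean in wild-type (22.6 ± 10.8 against 0.266 ± 0.095 RPKM, SD, n = 2) and 536 times in the libraries labelled Tcf7-KO (82.0 ± 63.8 against 0.153 ± 0.0675, SD, n = 2). The latter ratio was 241 without the first LP library labelled Tcf7-KO and 831 without the second, and the wild-type ratio was 56.1 without the second wild-type LP library.

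Granzyme C, a protease of the same cluster (Entrez Gene 14940, chr14:56231397-56241647), had the highest level of the granzymes in every LP library. It was at 0.851 and 0.843 RPKM in wild-type PP and at 0.748 and 0.878 in PP labelled Tcf7-KO. In LP it reached 88.8 and 111 RPKM in wild-type and 436 and 194 in the libraries labelled Tcf7-KO, again with no overlap between tissues and with the highest value in the first LP library labelled Tcf7-KO. The LP to PP ratio of the means was 118 in wild-type and 387 in the libraries labelled Tcf7-KO. Without that first LP library the latter ratio was 238. About 4.14% of the 50-base windows of its transcripts also occur in Gzmd, Gzme or Gzmg transcripts, so a small part of its reads could belong to those genes.

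Granzyme A, the tryptase of the family (Entrez Gene 14938, chr13:113093824-113100981), did not separate the tissues. It was at 28.2 and 73.3 RPKM in wild-type LP and at 21.0 and 53.1 in LP labelled Tcf7-KO. In PP, 3 libraries were at 0.351, 0.359 and 0.368 RPKM, and the first PP library labelled Tcf7-KO was at 74.9, above every LP library. The other granzymes were not raised in that library: Gzmb was at 0.201 and Gzmc at 0.748 RPKM in it. The LP to PP ratio of Gzma means, 143 in wild-type, was 0.985 in the libraries labelled Tcf7-KO, where it was 101 without the first PP library and 0.495 without the second. The wild-type ratio was 79.5 without the second wild-type LP library.

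Perforin (Entrez Gene 18646, chr10:61297751-61304684) was high in 1 library. It was at 11.2 RPKM in the first wild-type LP library, which corresponds to about 884 reads. The second wild-type LP library and the first PP library labelled Tcf7-KO listed it at 0, where 3 reads would be 0.0375 and 0.038 RPKM, and the other 5 libraries held 0.0116 to 0.0439 RPKM, or 1 to 4 reads. So the LP libraries that held the most Gzmb and Gzmc were near 0 for Prf1. The mean of the wild-type LP libraries, 5.63 ± 7.96 RPKM (SD, n = 2), rests on that 1 library. The limit of 3 reads covers counting error only, since without molecular identifiers PCR copies of 1 molecule cannot be told from separate molecules.

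Serglycin, the proteoglycan core on which granule proteases are held (Entrez Gene 19073, chr10:62493833-62527445), was abundant in all libraries. In PP it was at 609 and 872 RPKM in wild-type and at 618 and 734 in the libraries labelled Tcf7-KO. In LP it was at 1988 and 1847 RPKM in wild-type and at 2219 and 2874 in those labelled Tcf7-KO. Its tissue difference was of another size than that of the granzymes: the LP mean was 2.59 times the PP mean in wild-type and 3.77 times in the libraries labelled Tcf7-KO. Serglycin was thus present in PP at 609 RPKM or more where each of Gzmb and Gzmc was under 1.

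**Figure D1:**
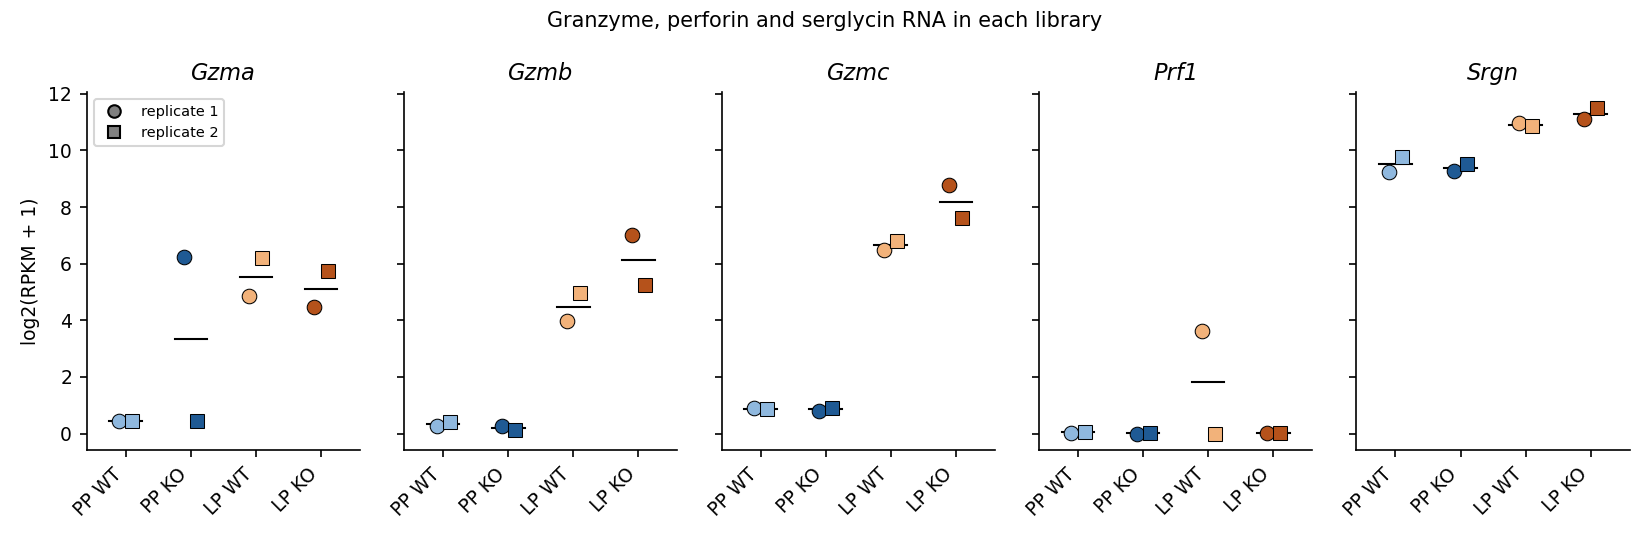
log2(RPKM + 1) of the 5 genes in each of the 8 libraries (circles replicate 1, squares replicate 2, bars the group mean), with WT for wild-type and KO for the libraries labelled Tcf7-KO. Gzmb, Gzmc and Srgn have all LP points above all PP points, Gzma has 1 PP library at 74.9 RPKM and Prf1 has 1 library at 11.2 RPKM.

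Of the 5 genes, 3, namely Gzmb, Gzmc and Srgn, had all 4 LP libraries above all 4 PP libraries. Of the 10541 genes kept for testing, 6.54% had this order and 7.05% the reverse. Because this tissue contrast selected the genes, the order is a description with no test.

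On the log2(RPKM + 1) scale, the LP minus PP difference was 4.14 in wild-type and 5.92 in the libraries labelled Tcf7-KO for Gzmb, 5.76 and 7.33 for Gzmc, and 1.39 and 1.91 for Srgn. For Gzma it was 5.10 and 1.76, and for Prf1 1.77 and 0.01. With a pseudocount of 0.1 in place of 1, which affects low values, the wild-type differences were 6.65 for Gzma, 5.89 for Gzmb and 6.72 for Gzmc. Without the first wild-type LP library, the wild-type difference of Prf1 was -0.04, and without the second PP library labelled Tcf7-KO, that of Gzma among libraries so labelled was -1.14.

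The granzyme mix in LP was led by Gzmc. Summed over all granzymes, the LP libraries held 134 and 215 RPKM in wild-type and 586 and 285 in those labelled Tcf7-KO. Gzmc made up 66.4% and 51.7% of this in wild-type and 74.5% and 68.0% in those labelled Tcf7-KO, and Gzmb 11.2%, 14.04%, 21.7% and 12.97% in the same order. Gzma made up 21.1% and 34.0% in wild-type but 3.59% and 18.7% in the libraries labelled Tcf7-KO. The Gzmc to Gzmb ratio lay between 3.43 and 5.95 in the 4 LP libraries, while the sum varied over a wider range. In PP the sums were 5.01 and 1.83 RPKM in wild-type, and 75.9, of which 98.75% was Gzma, and 1.35 in the libraries labelled Tcf7-KO.

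**Figure D2:**
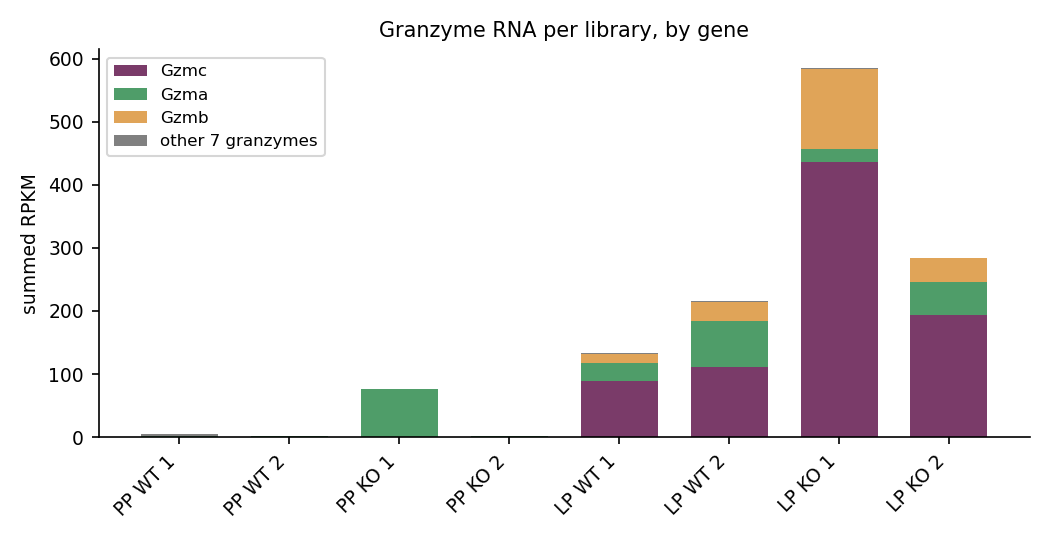
Stacked bars of RPKM for Gzma, Gzmb, Gzmc and the other 7 granzymes in each library, with WT for wild-type and KO for libraries labelled Tcf7-KO. Gzmc is the largest part of all 4 LP bars, and the bar of the first PP library labelled Tcf7-KO is Gzma.

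The other 7 granzymes were low, and 2 of them, Gzmd and Gzmf, were higher in all LP libraries, 0 were higher in all PP libraries and 5 overlapped. Of the genes kept for testing, 6.54% were higher in all LP libraries and 7.05% in all PP libraries. Only 1 of these 7 granzymes was high enough to be kept. Gzmd, whose promoter resembles that of Gzmc, was at 0 to 0.0548 RPKM in PP and 0.381 to 1.04 in LP, against 88.8 to 436 for Gzmc in LP. Its level was thus far below that of Gzmc, but its order between tissues was the same. Its highest value was also in the first LP library labelled Tcf7-KO. The promoter windows of Gzme, Gzmf and Gzmg also held 2 RUNX matches each. Of these genes, Gzme and Gzmg overlapped between tissues. Gzmf was higher in all LP libraries, but only with about 1 to 4 reads in each, against 0 in PP. Gzme reached 3.56 RPKM in the first wild-type PP library and 1.10 in the first wild-type LP library, and was under 0.1 in the other 6. Gzmf, Gzmg and Gzmn did not exceed 0.297 RPKM, and Gzmk and Gzmm were listed at 0 in every library. Between 19.4% and 21.9% of the 50-base windows of Gzmd, Gzme, Gzmf and Gzmg are shared with other genes, so how the authors' counting split reads among them is uncertain.

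The low PP values of the granzymes held few reads. Gzmb in PP corresponds to about 6 to 21 reads and Gzmc to about 27 to 35, against 814 to 7583 and 3191 to 17142 in LP. As a share of the gene's reads in the other 7 libraries, these low values were 0.0493 to 0.173% for Gzmb and 0.0854 to 0.111% for Gzmc. The low PP values of Gzma were 0.139 to 0.162%, and the low values of Prf1 were 0 in 2 libraries and otherwise 0.112% or 0.448%. Over all 6733 genes with at least 10 RPKM in a library and less than 1 in another, 23735 low values had a median share of 0.107% (quartiles 0.0697% and 0.16%), so the low granzyme values lay where those of other genes lay. All libraries carry the same lane label, and whether reads passed between libraries on it was not tested. The LP to PP ratios of Gzmb and Gzmc divide by these low values.

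**Figure D3:**
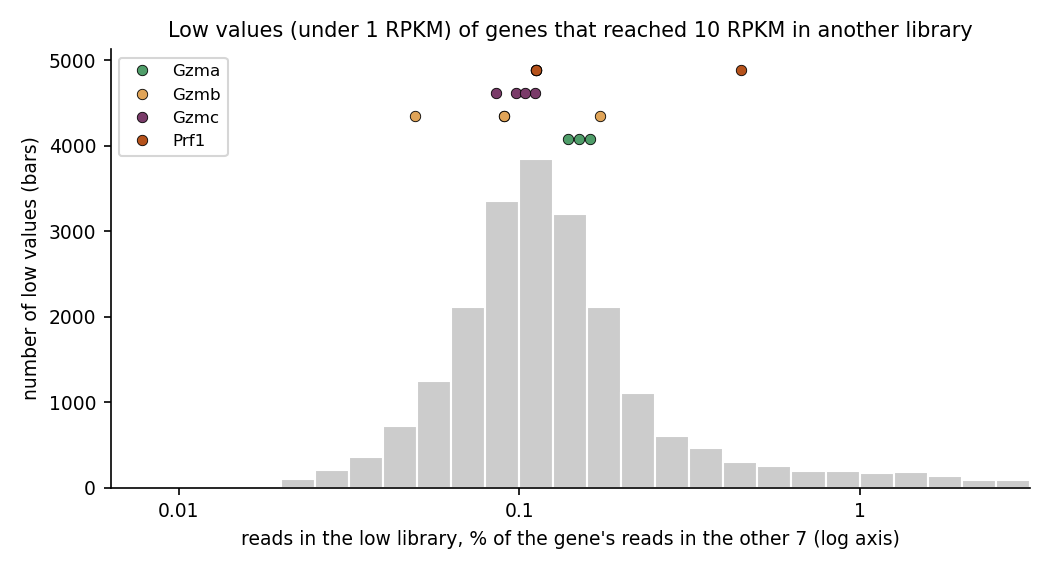
Histogram of low values (under 1 RPKM) as a percentage of the gene's reads in the other 7 libraries (log axis), for all genes that reached 10 RPKM in a library, with the low values of Gzma, Gzmb, Gzmc and Prf1 as points. The bars peak near 0.1%, and the points lie between 0.0493% and 0.448%, values of 0 not shown.

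Values that switch between replicates, as Gzma did in PP labelled Tcf7-KO and Prf1 in wild-type LP, were common in these libraries. Of the 10541 genes kept, 41.9% had a group in which 1 replicate was under 1 RPKM and the other at 10 RPKM or more. The share was 22.8% in wild-type PP, 14.9% in PP labelled Tcf7-KO, 7.84% in wild-type LP and 12.4% in LP labelled Tcf7-KO.

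Markers of other cells were summed as RPKM beside these results. Of 12 NK and ILC1 markers, 7 were at 0 in all 8 libraries, among them Ncr1 (the NKp46 gene, which the sort excluded) and Eomes. Klrb1c, the gene of NK1.1, which the sort also excluded, was not at 0. It was at 32.8 and 0.12 RPKM in wild-type PP, 0.187 and 8.42 in PP labelled Tcf7-KO and 0.135 to 0.178 in LP. The sum of the list was 91.6 to 169 RPKM in wild-type PP, 34.6 to 38.6 in PP labelled Tcf7-KO, 116 to 136 in wild-type LP and 58.8 to 107 in LP labelled Tcf7-KO. Within it, 1 gene was higher in all LP libraries, 1 in all PP libraries and 10 overlapped, among them the 7 at 0, which cannot show an order. The first was Klrk1, which encodes the activating receptor NKG2D, at 58.3 to 116.5 RPKM in LP and 0.717 to 23.2 in PP, and the other was Cd160, a receptor of NK and intraepithelial cells, at 0.315 to 14.7 in LP and 15.25 to 135 in PP. Klrb1c, Klrk1, Cd160 and Tbx21 were named after their values were seen. Of all genes kept, 6.54% were higher in all LP libraries and 7.05% in all PP libraries. Tbx21, the transcription factor T-bet of ILC1 and NK cells, was at 9.85 and 11.3 RPKM in wild-type LP and at 0.028 and 2.68 in LP labelled Tcf7-KO. How it relates to the granzyme values was not tested.

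Of 11 T cell markers, 2 (Trbc2 and Cd5) were higher in all PP libraries, an order that 7.05% of the genes kept had, and 9 overlapped between tissues. The order of Cd5 is near the floor. It was at 43.2 and 2.08 RPKM in wild-type PP but at 0.0876 and 0.0722 in PP labelled Tcf7-KO, against 0.012 to 0.038 in LP. The sums of the T cell list, made up mostly of Trbc2 and of Cd4, which LTi cells also express, were 664 to 1051 RPKM in PP and 248.8 to 437 in LP. Of 10 mast cell and basophil markers, cells that also carry serglycin, 6 were at 0 in all libraries, and the sums were 0.0517 to 18.9 RPKM in PP and 4.18 to 13.2 in LP. The sum of the B and plasma cell markers was higher in every LP library, at 5083 to 12155 RPKM in PP and 15687 to 25327 in LP. Epithelial markers summed to 149 to 593.5 RPKM in PP and 116 to 364 in LP, and myeloid markers to 0.75 to 65.3 in PP, 5.68 to 11.1 in wild-type LP and 55.4 to 99.9 in LP labelled Tcf7-KO. The myeloid sum in LP labelled Tcf7-KO was mostly Cd14, at 90.5 and 32.5 RPKM there and at 10.6 and 0.0512 in wild-type LP. Of the 10 myeloid markers, 3 (Mrc1, S100a8 and S100a9) were at 0 in all libraries. The part of any of these cell types in the granzyme values was not tested.

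The genes that act with granzymes were taken from lists by role, and the 3 with the highest mean level of each list are named. The counts of list genes that did not overlap between tissues stand beside 6.54% of all genes kept for LP above PP and 7.05% for the reverse, and with so few genes a list they are descriptions only. Of 6 inhibitors, 2 were higher in all LP libraries, 1 in all PP libraries and 3 overlapped. Among inhibitors, Serpinb9, the inhibitor of granzyme B that protects cells from their own protease, was at 199 to 320 RPKM in LP and 11.7 to 29.1 in PP. The related Serpinb6b was also higher in all LP libraries, at 269 to 347 RPKM against 45.1 to 110. Serpinb1a, an inhibitor of neutrophil proteases, had the reverse order, at 158 to 265 RPKM in LP and 287 to 435 in PP.

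Of 11 granule proteins, 1 was higher in all LP libraries, 3 were higher in all PP libraries and 7 overlapped. Lamp1, a lysosome membrane protein that reaches the surface when granules are released, was at 578 to 768 RPKM in PP and 91.9 to 196 in LP. Ctsd, a lysosomal aspartic protease, was at 158.5 to 413 in PP and 21.5 to 118 in LP. Calr, a chaperone also found in cytotoxic granules, was at 11.3 to 138.5 RPKM in PP and 173 to 212 in LP.

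Of 10 genes of granule transport and release, 1 was higher in all LP libraries, 1 in all PP libraries and 8 overlapped, 2 of them (Vamp7 and Sytl2) listed at 0 throughout. Stx11, a syntaxin needed for release of cytotoxic granules, was at 156 to 278 RPKM in LP and 0.705 to 28.1 in PP. Vamp8, a vesicle SNARE, was at 78.9 to 176 in LP and 364 to 507 in PP, and Stxbp2, the partner of Stx11, overlapped between tissues at 31.9 to 44.2 in LP and 11 to 134 in PP. Thus the 2 partners Stx11 and Stxbp2 did not share an order.

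Of 16 genes that build the sugar chains of serglycin, none was higher in all LP libraries and 2 were higher in all PP libraries. Chst12, a chondroitin sulfotransferase, was at 72.6 to 179 RPKM in PP and 0.586 to 45.5 in LP. Ext2, of heparan sulfate synthesis, and Chpf, of chondroitin synthesis, overlapped, at 0.572 to 195 and 0.24 to 72.1 RPKM in PP and 25.4 to 35.8 and 1.48 to 29.9 in LP.

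Among 11 measured transcription factors of the cytotoxic programme, 2 were higher in all LP libraries, 2 in all PP libraries and 7 overlapped. Bhlhe40, a factor of activated lymphocytes, was at 907 to 1400 RPKM in LP and 121 to 245 in PP, and Stat4, which carries the interleukin-12 signal, at 159 to 283 and 22.0 to 84.3. Id2, needed by all innate lymphoid cells, was at 769 to 1506 RPKM in LP and 1603 to 2024 in PP. Among 9 receptor genes of cytokines that induce granzymes, Il2rb, the chain shared by the interleukin-2 and interleukin-15 receptors, was higher in all LP libraries, at 970 to 1495 RPKM against 350.5 to 635. Il2rg, the common gamma chain, and Il2ra, the interleukin-2 receptor alpha chain, overlapped between tissues.

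**Figure D4:**
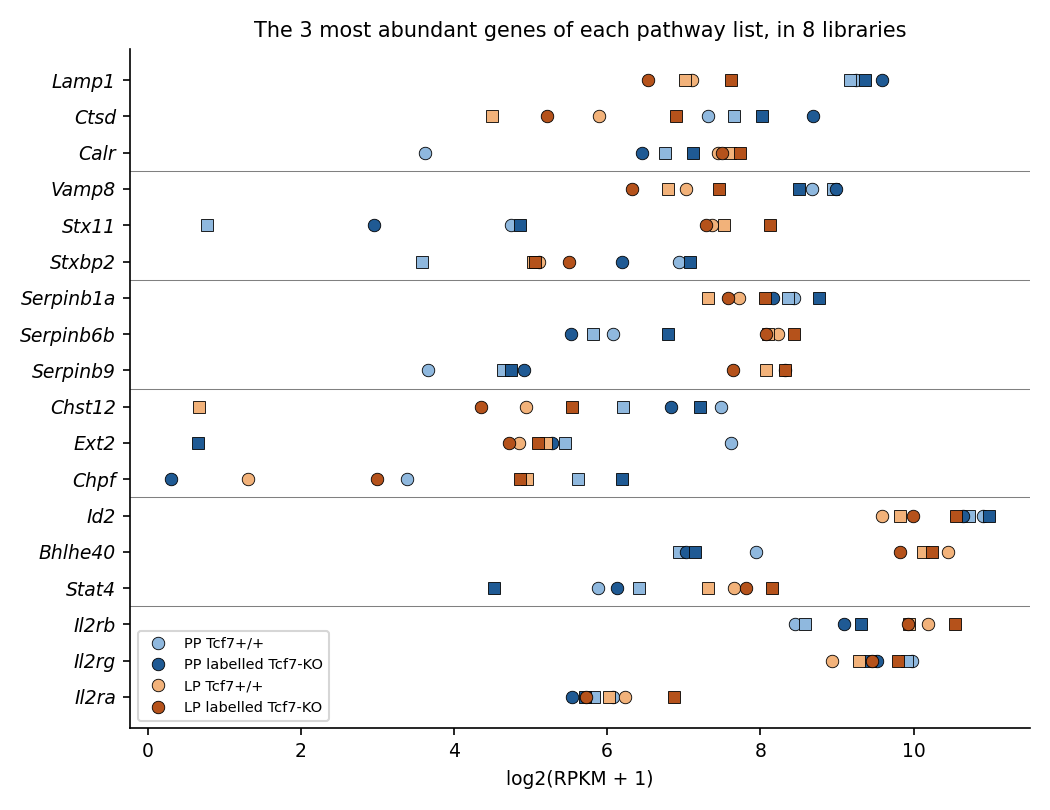
log2(RPKM + 1) of the 3 named genes of each list in the 8 libraries (circles replicate 1, squares replicate 2), coloured by tissue and genotype. Serpinb9, Serpinb6b, Stx11, Bhlhe40 and Il2rb have all LP points above all PP points, while Lamp1, Ctsd, Vamp8 and Chst12 have the reverse.

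The effect of the genotype was not used to select the genes and was tested with limma on log2(RPKM + 1), with p-values adjusted over 10541 genes. In LP, both libraries labelled Tcf7-KO were above both wild-type libraries for Gzmb, Gzmc and Srgn, 3 of the 5 genes, and 15.3% of the genes kept had that order. The difference between the means (labelled Tcf7-KO minus wild-type) was 1.64 ± 1.10 (log2, SE) for Gzmb, with a 95% interval of -0.95 to 4.24, 1.54 ± 0.77 (-0.29 to 3.36) for Gzmc and 0.40 ± 0.23 (-0.14 to 0.93) for Srgn. With limma, the unadjusted p was 0.178, 0.0863 and 0.122, and the Benjamini-Hochberg adjusted p was 1 for each, so these differences did not pass the threshold of 0.05. The first LP library labelled Tcf7-KO is the highest for Gzmb and Gzmc, and without it their differences were 0.77 and 0.95. For Gzma the LP difference was -0.43 ± 1.81 (-4.71 to 3.84, limma adjusted p = 1).

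In PP the difference was 2.91 ± 1.81 (log2, SE; -1.36 to 7.19) for Gzma, with a limma adjusted p of 0.693. It rests on 1 library: without the first PP library labelled Tcf7-KO it was 0.01. Gzmb (-0.13 ± 1.10, -2.73 to 2.46), Gzmc (-0.03 ± 0.77, -1.85 to 1.80) and Srgn (-0.11 ± 0.23, -0.65 to 0.42) had limma adjusted p of 1, 1 and 0.919. The Srgn values moved with the scaling: after median-of-ratios rescaling its difference was -0.69 (log2, -1.19 to -0.20, limma unadjusted p = 0.0126, adjusted p = 0.211) in PP and 0.62 (0.13 to 1.11, limma adjusted p = 0.688) in LP.

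Averaged over tissues, the differences were 1.24 ± 1.29 (log2, SE) for Gzma, 0.76 ± 0.93 for Gzmb, 0.76 ± 0.68 for Gzmc and 0.14 ± 0.18 for Srgn, with limma adjusted p of 0.902, 0.927, 0.857 and 0.932. The interaction, the genotype difference in LP minus that in PP, was 1.78 ± 1.56 (log2, SE) for Gzmb, 1.57 ± 1.09 for Gzmc, 0.51 ± 0.32 for Srgn and -3.34 ± 2.56 for Gzma, with limma adjusted p of 0.827, 0.746, 0.718 and 0.779. After median-of-ratios rescaling the interaction of Srgn was 1.31 (0.61 to 2.01, limma unadjusted p = 0.00292, adjusted p = 0.293). That of Gzma was -0.45 without the first PP library labelled Tcf7-KO and -6.24 without the second. Whether the genotype acts differently on these genes in the 2 tissues was therefore not resolved with 2 libraries per group. Prf1 was not tested, as only 1 library reached 1 RPKM.

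**Figure D5:**
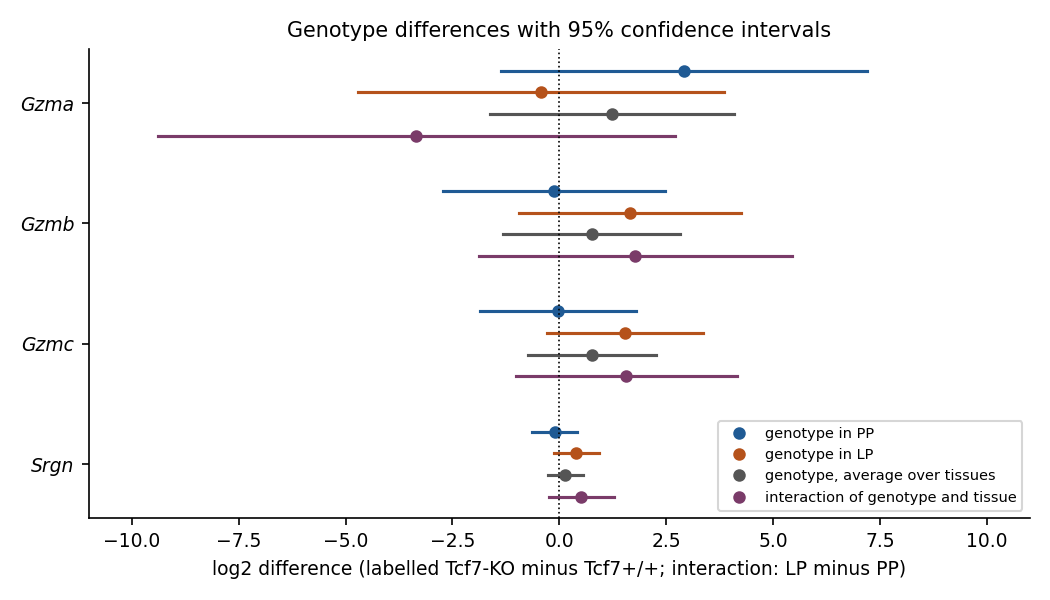
Difference between libraries labelled Tcf7-KO and wild-type libraries in mean log2(RPKM + 1) for Gzma, Gzmb, Gzmc and Srgn, with 95% intervals from limma, in PP, in LP, averaged over tissues, and as the interaction. All intervals include 0, and those of Gzmb and Gzmc in LP reach from -0.95 to 4.24 and from -0.29 to 3.36.

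Of the 4 tested genes, 0 passed limma's threshold in any of these comparisons, and without the alternative settings 0 had an unadjusted p under 0.05. Among alternatives that kept both libraries of each group compared, Srgn after rescaling and Gzmc in LP fell under it. For Gzmc, the limma unadjusted p was 0.0222 without a filter (adjusted p = 0.825) and 0.0237 fitted on the 2 LP groups alone (adjusted p = 0.462). Fits that left 1 library in a group are not counted here. In such fits, the Gzma difference in PP was 5.81 (log2) without the second PP library labelled Tcf7-KO and 0.01 without the first. The Srgn interaction was 0.77 without the first wild-type PP library and 0.26 without the second. Across all genes tested, 0.36% passed for the genotype in PP (38, with 1201 at an unadjusted p under 0.05), 0.0285% in LP (3 and 556), 0.00949% for the average (1 and 718) and 0.0285% for the interaction (3 and 922). No gene of the 7 pathway lists passed either. Of the cell type markers, 1 passed in PP: Iglc2, an immunoglobulin light chain gene, with a difference of 4.86 ± 0.62 (log2, SE, limma adjusted p = 0.0374). In LP, the median difference was 0.09 on the log2 scale for the 9 granule proteins tested, 0.09 for the 8 release genes, -0.05 for the 4 serpins, 0.01 for the 14 sugar chain genes, 0.08 for the 9 transcription factors and 0.10 for the 7 receptors, beside -0.06 over all genes tested. In PP the medians were 0.26, -0.49, 0.15, 1.45, -0.02 and -0.32 in the same order, beside 0.16 over all genes. Rescaling by the median of ratios moved the all-gene median in PP from 0.155 to -0.0712, and that of the interaction from -0.393 to 0.177.

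The genes most like each member over the 8 libraries were ranked by Pearson r of log2(RPKM + 1) among 7266 genes that averaged 5 RPKM or more. The libraries fall apart by tissue, so a high r mostly restates which tissue a gene is higher in, and no p is given. Gzmc was the gene most like Gzmb (r = 0.992), followed by Cxcl2, a neutrophil chemokine (0.989), and Ube2c, an enzyme of mitosis (0.987). Gzmc was most like Cxcl2 (r rounds to 1), Trpt1 (0.997) and Ube2c (0.995). Cxcl2 was at 0.971, 0.956, 1.15 and 1.19 RPKM in PP and at 123, 159.5, 550.5 and 291 in LP, in the order of the groups above, so its highest library was that of Gzmc.

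The genes most like Srgn were Sub1 (0.982), Fam110a (0.981) and Sqstm1, an autophagy receptor (0.980). For Gzma these were Hinfp, Fars2 and Spryd4 (0.976 each), with 20 genes at 0.95 or more, against 83 for Gzmc. Prf1 was most like the immunoglobulin segment Ighv1-31 (0.952, 7267 genes compared), a value that rests on the single wild-type LP library in which Prf1 was high.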

How the data were processed

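Gene expression of sorted LTi cells was measured in 8 libraries. Extraction of total RNA used the miRNeasy Micro kit and library preparation Smart-seq2, which amplifies cDNA by PCR, per the labels' protocols. The authors deposited log2(RPKM + 1) per gene, with 0.0001 written for 0. Per the submitters' processing notes, the counter was featureCounts (Subread) and the build mm10. For the aligner, versions and strandedness, nothing was given in the sources used here. The log base was checked: undoing log2 made 69.4% of 209 low values whole multiples of 1 read within 0.1, against 12.7% of 189 for natural log, 20.7% of 135 for log10 and 19.3% of 290 with no log. Depth and reads per gene were estimated from what 1 read is worth in 810 genes (quartiles over genes 19.4 and 38.8 M).

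Symbols were matched ignoring case, and 25275 of 27179 identifiers to RefSeq GRCm38.p6 (847 genes have no symbol). Genes reaching 1 RPKM in 2 or more libraries (10541) were fitted with limma 3.58.1 in R 4.3.3 (4 group means, eBayes with trend, two-sided; an additive model for the average effect), with Benjamini-Hochberg adjustment over all genes kept and a threshold of 0.05. The fit of the genotype in PP was tested on simulated data with a smaller spread than these libraries had. That test therefore does not show how the fit behaves at their spread. Promoter windows are from RefSeq. Named are the 5 genes, Tcf7, of each pathway list the 3 genes of highest mean level and any that passed, and the 3 genes most like each member. Shared sequence was counted as 50-base windows in GENCODE M21 transcripts. The genes and lists were chosen with earlier results of these data known. The limit of 10 RPKM in the description of low values was chosen after values were seen, so that Prf1 is covered. Alternatives covered the pseudocount, the filter, the scaling, a replicate block, fitting 2 groups alone and leaving out each library. The results of 1 marker gene are not reported here.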

Additional observations from a re-analysis of the deposited data

How the results depend on the processing

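None of the 4 tested genes passed under any alternative (lowest limma adjusted p 0.211), and 220 of 229 genotype values kept their sign. Many of these signs could not turn. The filters, the replicate block and the fit of 2 groups alone leave each difference as it was. So does leaving out a library of the other tissue, for the difference within PP or LP. The log2 differences that turned were in PP Gzmc (0.03 with the total rescaled without immunoglobulin and mitochondrial genes, 0.02 without the first PP library labelled Tcf7-KO, range -0.08 to 0.02 with 1 library left out) and Srgn (0.01, 0.01 for the same alternatives and 0.14 without the second wild-type PP library, range -0.37 to 0.14), in LP Gzma (0.24 without the second wild-type library, 0.22 without the first labelled Tcf7-KO, range -1.10 to 0.24), and for the average Gzma (-0.25 without the first PP library labelled Tcf7-KO, range -0.25 to 2.06) and Srgn (-0.04 after median-of-ratios rescaling). Of 110 tissue values, 2 turned. They were Prf1 in wild-type (-0.04 without the first LP library, range -0.04 to 3.58) and Gzma in libraries labelled Tcf7-KO (-1.14 without the second PP library, range -1.14 to 4.66). That 94 moved by less than 1 SD between replicates says little, since leaving out 1 library can hardly move a mean by more. The pseudocount and the scaling could: wild-type Gzmc, at 5.76, was 6.72 with a pseudocount of 0.1 and 5.47 after median-of-ratios rescaling. Counts of genes passing, over all genes, depended on the settings. For the genotype in PP (38) they were 76 without a filter, 23 after median-of-ratios rescaling, 17 fitted on 2 groups alone and 1 to 35 with 1 library left out, with 1 without either PP library labelled Tcf7-KO, 15 and 14 without the wild-type LP libraries and 24 without either LP library labelled Tcf7-KO. For LP (3) they were 0 with a pseudocount of 0.1, 56 without a filter and 0 to 4 with 1 library left out; for the average (1) 1 to 4, and for the interaction (3) 36 without a filter and 0 to 6. Whether libraries of the same replicate number belong together is not stated in the labels. Their deviations from the group means correlated at -0.021 to 0.010 over the genes kept. That cannot settle it, since values that switch between replicates were common. A replicate block gave 16 genes in PP, 0 in LP and 1 for the interaction. The cause of these differences was not tested. Where a group is left with 1 library, that library is assumed to vary like the other groups. With 2 libraries per group, intervals are wide, and the depth of single genes is known only as an estimate.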
